A study of Mus musculus with 8 samples.

Results

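Proliferation genes were examined in CD73-selected photoreceptor cells of mouse retina at postnatal day 8. The set held 47 genes that act in DNA replication, nucleotide supply, the cyclin and kinase steps of the cell cycle, chromosome segregation and cell cycle arrest. They were taken by name, each through the RefSeq accession of its probes, from the 22907 genes with a named probe on the array. The probe with the highest mean signal stood for each gene.

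The study asked how loss of Lpcat1, which encodes an enzyme that makes saturated phosphatidylcholine, affects photoreceptor cells. Retinas of heterozygous (HZ) and homozygous knockout (KO) C57BL/6 mice were dissociated, and cells carrying CD73 were enriched with magnetic beads. CD73, the product of Nt5e, is a surface enzyme of the rod lineage. RNA was hybridised to 8 one-color Agilent arrays, 4 labelled HZ and 4 labelled KO. Both groups carried a global deletion allele, 1 copy in HZ and both copies in KO, in a line crossed between C57BL6/N and C57BL6/J so that the Crb1 rd8 allele was not homozygous, and no wild-type sample was analysed here. The sources used here do not state how many mice gave each sample, so p-values measure only the spread between these samples.

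In the postnatal mouse retina, a shrinking pool of progenitors still divides during the first days after birth, and its late progeny are mainly rods, bipolar cells and Muller glia. Cyclin D1 with CDK4 or CDK6 releases E2F factors, which switch on genes for DNA synthesis. A later wave of genes, driven by FOXM1 and relieved of repression, carries cells through mitosis, and CDK inhibitors close the cycle as cells differentiate. In bulk RNA, fewer cells of a type and less RNA per cell cannot be told apart.

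Of the 47 genes, 44 were tested and 41 of these were well above background on all 8 arrays. Cdk1, the mitotic kinase, was above background on 2 HZ arrays and 1 KO array, and the checkpoint kinase Bub1 on 2 HZ arrays and 0 KO arrays. Ccne2, which encodes cyclin E2, was above background on 0 HZ arrays and 1 KO array. These 3 genes were not tested. The tested genes Cdc6 and Cdc25c were above background on 4 HZ and 3 KO arrays, and Aurkb on 2 HZ and 3 KO arrays. Of 12 genes with several tested probes, the probes of 6 (Birc5, Ccna2, Cdk4, Cenpf, Mcm3 and Mcm7) differed in the sign of the KO minus HZ difference.

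The arrays were close in brightness, with 75th percentiles of 882 to 1024 intensity units and 59.5% to 63.8% of probes well above background. Lpcat1 itself did not separate the labels, with a KO minus HZ difference of -0.04 ± 0.11 (SE, n = 4 per group) on the log2 scale and an adjusted p of 0.930 by limma, and whether its probe lies in the deleted part of the gene was not settled, so the value is no check of the labels and directions rest on the labels as given. All 13 rod markers on the list were tested, Nrl among them. So were all 12 Muller glia, 10 bipolar and 9 cone markers, so this count does not measure the share of rods. Of 12 retinal progenitor markers, 10 were tested, Hes1 was above background on 0 arrays and Fgf15 on 1 HZ and 1 KO array. All arrays lay on 1 slide, with KO arrays in 1 row and HZ arrays in the other, so slide row and genotype cannot be told apart. Same-numbered arrays shared a slide column, so replicate number and column cannot be told apart either. The lowest KO minus HZ difference of all tested genes was that of Xist, at -2.58, and the sex mix of the groups was not tested.

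Promoters were read because genes of the cell cycle waves share short motifs, and 5 are shown: Rrm2, Mki67 and Top2a, whose signals moved together across the arrays, and Pcna and Cdk6, whose signals varied little between replicate numbers. RefSeq promoters of GRCm38.p6 were at hand for 36 of the 47 genes. Each line holds the 250 bases before the annotated start, at chr12:24708004-24708253 on the plus strand for Rrm2, chr7:135716380-135716629 on the minus strand for Mki67, chr11:99024190-99024439 on the minus strand for Top2a, chr2:132253181-132253430 on the minus strand for Pcna and chr5:3343643-3343892 on the plus strand for Cdk6. Capitals mark CCAAT (or ATTGG on the other strand), the CCAAT box word, and TTTGAA (or TTCAAA), the word of the cell cycle genes homology region (CHR), a motif of genes expressed in G2 and mitosis.
Rrm2: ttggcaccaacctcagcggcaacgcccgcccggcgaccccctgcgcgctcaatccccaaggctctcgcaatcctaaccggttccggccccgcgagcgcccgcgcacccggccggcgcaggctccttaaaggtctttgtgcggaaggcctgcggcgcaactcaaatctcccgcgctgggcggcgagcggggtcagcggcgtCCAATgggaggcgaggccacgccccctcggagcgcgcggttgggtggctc
Mki67: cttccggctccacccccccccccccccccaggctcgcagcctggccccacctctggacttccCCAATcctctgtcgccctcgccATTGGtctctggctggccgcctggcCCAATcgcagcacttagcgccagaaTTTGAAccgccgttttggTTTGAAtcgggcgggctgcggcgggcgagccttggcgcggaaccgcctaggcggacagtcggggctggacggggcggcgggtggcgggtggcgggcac
Top2a: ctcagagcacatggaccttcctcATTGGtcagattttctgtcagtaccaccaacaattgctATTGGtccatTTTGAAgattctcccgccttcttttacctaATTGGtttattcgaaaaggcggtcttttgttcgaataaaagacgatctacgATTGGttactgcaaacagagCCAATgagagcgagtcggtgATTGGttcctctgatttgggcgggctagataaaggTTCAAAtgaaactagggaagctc
Pcna: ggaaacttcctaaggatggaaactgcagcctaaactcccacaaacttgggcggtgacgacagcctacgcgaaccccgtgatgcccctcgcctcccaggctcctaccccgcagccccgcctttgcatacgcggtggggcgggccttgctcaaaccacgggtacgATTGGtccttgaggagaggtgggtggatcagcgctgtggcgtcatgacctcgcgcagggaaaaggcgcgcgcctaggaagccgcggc
Cdk6: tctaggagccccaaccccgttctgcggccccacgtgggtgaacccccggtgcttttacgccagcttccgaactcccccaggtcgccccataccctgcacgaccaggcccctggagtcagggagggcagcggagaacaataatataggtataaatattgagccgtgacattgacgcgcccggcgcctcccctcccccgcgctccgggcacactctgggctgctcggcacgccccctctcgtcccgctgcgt
The Top2a promoter held 6 CCAAT words and 2 CHR words, and the Mki67 promoter 3 and 2. Rrm2 and Pcna each held 1 CCAAT word and 0 CHR words, and Cdk6 held 0 of either. The words do not overlap each other.

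Across the 36 genes, 26 (72.2%) held a CCAAT word, while 37.5% of the 27025 genes in the table did (33.8% of its 32851 promoters). A CHR word stood in 8 (22.2%), against 18.3% of genes in the table (16.0% of promoters). The E2F words TTTGGCGC and TTTCCCGC, searched on both strands (the reverse words are GCGCCAAA and GCGGGAAA), stood in 5 genes (13.9%), Cdc6, Mcm5, Mcm6, Mcm7 and Cdk2, against 1.51% of genes in the table (1.30% of promoters). A few genes have several promoters in the table and counted if any of them held a word. These matches describe letters and were not tested as sites.

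As a set, the proliferation genes differed little between KO and HZ. The median KO minus HZ difference of the 44 tested genes was 0.01 on the log2 scale, beside 0.03 over all 14833 tested genes. The difference was above 0 for 23 genes (52.3%, against 56.8% of all tested genes) and below 0 for 21. It was under 1.2-fold for 35 of the 44, a size that 79.1% of all tested genes also kept under. The study's methods name 2 pairs of thresholds, the looser at 1.5-fold with an adjusted p of 0.5, and at that pair 1 gene was called, Cdk6, where 1.46% of all tested genes were. At the stricter pair, 1.2-fold with an adjusted p of 0.05, 0 genes were called, as 0.0% of all tested genes were. At an unadjusted p of 0.05 limma called 1 of the 44, again Cdk6, against 9.3% of all tested genes, and the values of the 2 groups failed to overlap for 1, also Cdk6, against 8.0%. The plot of differences by role shows Cdk6 as the highest point, with a short error bar.

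**Figure D1:**
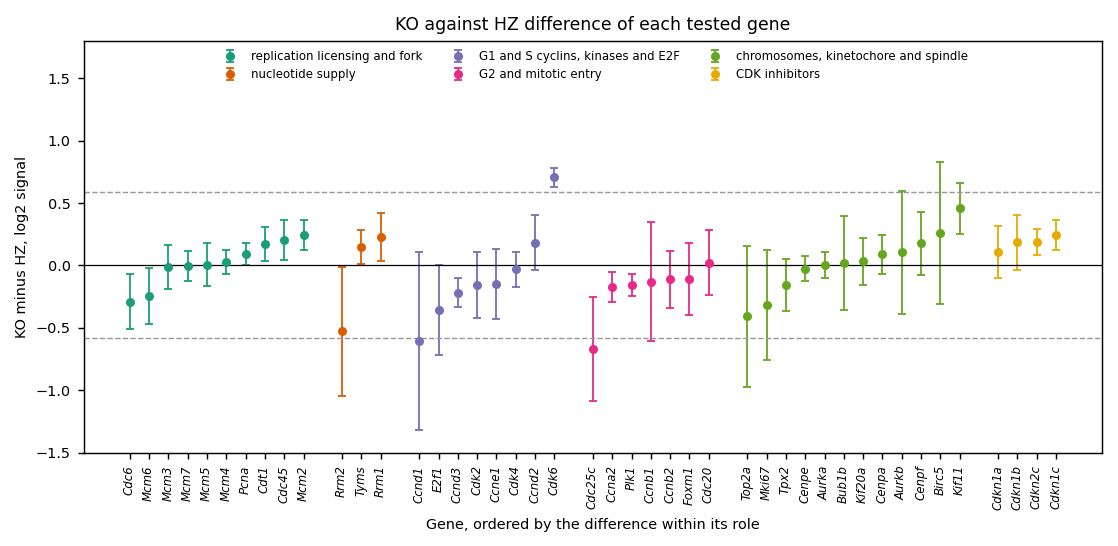
KO minus HZ difference in log2 signal (vertical axis) of the 44 tested proliferation genes (horizontal axis), ordered within role. Points are limma estimates, bars are ± SE (n = 4 arrays per group), dashed lines mark 1.5-fold, and Cdk6 lies at 0.71 while Cdc25c and Ccnd1, at -0.67 and -0.61, have wide bars.

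Cdk6 encodes the cyclin D partner kinase that acts beside CDK4. Its normalized log2 signal, relative to the 75th percentile of the array, was -4.42, -4.27, -4.32 and -4.33 on HZ arrays 1 to 4 and -3.64, -3.62, -3.70 and -3.56 on KO arrays 1 to 4. Every KO array lay above every HZ array, and the values within a group lay close together. The difference was 0.71 ± 0.077 (SE, n = 4 per group), 1.63-fold, with a 95% interval of 0.53 to 0.88 and an adjusted p of 0.157 by limma. No probe on the array had a smaller adjusted p, and by unadjusted p the Cdk6 probe ranked 3 among the 34280 tested probes.

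The Cdk6 probe was dim, and the size of its difference depended on the background correction: it was 0.34 after normexp, which ended the call, and 0.87 after quantile normalization. Without HZ replicate 1, HZ replicate 3, KO replicate 3 or KO replicate 4 the call was also lost, with a difference of 0.68 to 0.73 over the arrays left out in turn, and in those 4 fits 0.0% of all tested genes were called. Markers of other cell types also differed between the groups. All 12 tested of 13 microglia markers were higher in KO (median 0.75), but at replicate 4 only 2 of them were (median -0.46). Their mean level was -0.83 to 0.44 in HZ and 0.00 to 0.81 in KO, and Ptprc was above background on 0 HZ arrays. The looser thresholds were passed by 1 of the 12, against 1.46% of all tested genes. Of 13 tested of 14 pigment epithelium markers, 12 were lower in KO (median -1.67) and 9 passed the looser thresholds, against 1.46% of all tested genes. Their mean level was 0.01 to 1.27 in HZ and -1.46 to -0.11 in KO, and Lrat was above background on 1 HZ and 1 KO array. Of 6 red blood cell markers 2 were tested, both higher in KO (median 1.61), and 0 passed the looser thresholds. Their mean level was -1.36 to 0.24 in HZ and -0.73 to 2.16 in KO, while Alas2 was above background on 0 arrays. Mean levels are average log2 deviations from each gene's mean over the 8 arrays. The part of these cells in the Cdk6 difference was not tested.

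Among the 10 genes of replication licensing and the fork, 6 had a difference above 0 and 0 passed a threshold, with a median of 0.02. The largest difference was that of Cdc6, which loads the MCM helicase, with -5.16, -4.50, -4.78 and -4.52 in HZ and -5.14, -5.37, -5.12 and -4.48 in KO. Mcm6, a helicase subunit, read 0.57, 1.03, 0.78 and 0.23 in HZ and 0.28, 0.89, 0.02 and 0.44 in KO. In both genes the groups overlapped, at -0.29 ± 0.22 (adjusted p 0.736 by limma) and -0.25 ± 0.22 (adjusted p 0.769 by limma). The Cdc6 probe was dim, and after normexp its difference was -0.003. Pcna, the sliding clamp of DNA polymerase, read 3.05, 3.11, 2.94 and 2.83 in HZ and 3.13, 3.11, 3.01 and 3.05 in KO. Its difference of 0.09 ± 0.09 (adjusted p 0.777) had a 95% interval of -0.11 to 0.30. Differences of the other 7 genes lay between -0.01 (Mcm3) and 0.24 (Mcm2, which loads with Mcm6 in 1 ring).

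Of the 3 genes of nucleotide supply, the subunits of ribonucleotide reductase had differences of opposite sign, and neither passed a threshold. Rrm2, the subunit made in S phase, read -3.87, -2.18, -3.09 and -3.88 in HZ and -4.17, -2.58, -3.73 and -4.64 in KO. Rrm1, the large subunit, read 0.17, 0.39, 0.10 and -0.55 in HZ and 0.28, 0.35, 0.15 and 0.24 in KO. The groups overlapped in both, with differences of -0.53 ± 0.52 (adjusted p 0.783) and 0.23 ± 0.19 (adjusted p 0.754). The array of replicate 2 gave the highest Rrm2 value in each genotype.

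Of the 8 tested genes among G1 and S cyclins, kinases and E2F, 6 had a difference below 0, with a median of -0.15. After Cdk6, the largest was that of Ccnd1, which encodes the main D-type cyclin of retinal progenitors. Ccnd1 read -0.86, 1.48, 0.10 and -0.87 in HZ and -0.997, 0.96, -0.58 and -1.97 in KO. Within each number KO was lower, but the values of a genotype spread over more than the difference of -0.61 ± 0.71, with an adjusted p of 0.816, and 0.363 with the replicate number as a block, which passed the looser thresholds. Differences of the other 6 genes lay between -0.36 (E2f1, an E2F activator) and 0.18 (Ccnd2).

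Of the 7 tested genes of G2 and mitotic entry, 6 had a difference below 0, with a median of -0.13. Cdc25c, a phosphatase that activates CDK1, read -4.38, -4.17, -5.03 and -3.39 in HZ and -5.53, -4.29, -5.47 and -4.36 in KO, a difference of -0.67 ± 0.42 with an adjusted p of 0.696. KO was lower at all 4 replicate numbers, and with the replicate number as a block the adjusted p by limma was 0.370, which passed the looser thresholds. Ccna2, which encodes cyclin A2, read 1.37, 1.12, 1.41 and 1.59 in HZ and 1.16, 1.04, 1.31 and 1.30 in KO, a difference of -0.17 ± 0.12 with an adjusted p of 0.721. Both groups overlapped in both genes, and a dimmer Ccna2 probe gave 0.09 ± 0.12. The other 5 genes lay between -0.16 (Plk1, a mitotic kinase) and 0.02 (Cdc20, an activator of the anaphase-promoting complex).

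Of the 12 tested genes of chromosomes, kinetochore and spindle, 8 had a difference above 0, with a median of 0.03. Kif11, the motor that separates spindle poles, had the largest, with -3.95, -3.55, -3.89 and -3.92 in HZ and -3.85, -3.04, -3.58 and -3.03 in KO. Top2a, which untangles sister chromatids, read -4.35, -2.08, -3.22 and -3.82 in HZ and -4.44, -2.69, -3.45 and -4.53 in KO. Mki67, which encodes the proliferation antigen Ki-67, read -3.17, -1.38, -1.95 and -2.87 in HZ and -2.91, -1.85, -2.68 and -3.22 in KO. All 3 overlapped between the groups. The differences were 0.46 ± 0.20 for Kif11 (adjusted p 0.619), -0.41 ± 0.57 for Top2a (adjusted p 0.846) and -0.32 ± 0.44 for Mki67 (adjusted p 0.843). Without HZ replicate 2 the Mki67 difference was -0.00023 and that of Top2a 0.021. The interval of the Mki67 difference, -1.33 to 0.69, spans a fall of more than 2-fold and a rise of more than 1.5-fold.

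All 4 CDK inhibitors had a difference above 0, with a median of 0.19, and 0 passed a threshold. Cdkn1c, which encodes p57, read 3.48, 3.72, 3.47 and 3.22 in HZ and 3.76, 3.84, 3.62 and 3.65 in KO, a difference of 0.24 ± 0.12 with an adjusted p of 0.639. Cdkn2c, which encodes p18, read -1.42, -1.17, -1.45 and -1.49 in HZ and -1.34, -1.13, -1.24 and -1.07 in KO, a difference of 0.19 ± 0.10 with an adjusted p of 0.674. Cdkn1b, which encodes p27, read 3.07, 3.16, 2.94 and 2.13 in HZ and 2.88, 3.21, 2.96 and 2.98 in KO, a difference of 0.18 ± 0.22 with an adjusted p of 0.820. The low value of HZ replicate 4 set the direction for Cdkn1b, since without that array the difference was -0.047.

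The genes also differed between the replicate numbers, which the labels give within each genotype. The labels do not state that same-numbered HZ and KO arrays are pairs. They were taken as pairs because they shared a slide column and deviated together, a choice made in part on these same values. Results by number, and calls with the number as a block, depend on that choice. Replicate 2 was highest in both genotypes for 23 of the 44 genes (52.3%, against 23.8% of all tested genes). The 4 means per number, each over 1 HZ and 1 KO array, spanned a median of 0.56 over the 44 genes and 0.30 over all tested genes. Ccnd1 spanned 2.64, Top2a 2.01, Rrm2 1.88 and Mki67 1.43. In all 4 the arrays of replicate 2 stood highest in both genotypes and those of replicate 3 came next. Pcna spanned 0.17 and Cdk6 0.08, and neither shows replicate 2 apart.

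**Figure D2:**
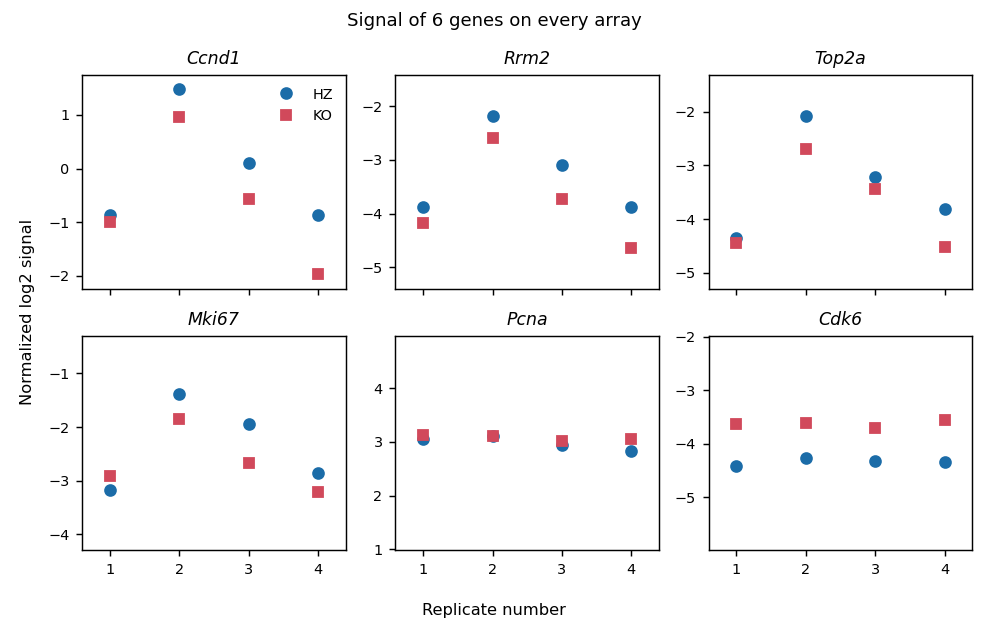
Normalized log2 signal (vertical axis, each panel 4 log2 units high) of 6 genes by replicate number (horizontal axis). Points are single arrays, circles HZ and squares KO, and replicate 2 is highest in both genotypes for Ccnd1, Rrm2, Top2a and Mki67, while Cdk6 separates by genotype at every number.

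A moderated F test of limma between the 4 numbers, chosen after the values were seen, passed an unadjusted p of 0.05 for 12 of the 44 genes (27.3%, against 13.2% of all tested genes). None of the 44, and 0.0% of all tested genes, passed an adjusted p of 0.05. The 12 were Rrm2, Ccnd1 and E2f1 of the S phase and G1 genes, Ccnb2, Cdc25c, Foxm1 and Cdc20 of mitotic entry, Mki67, Top2a, Aurkb and Cenpf of the chromosomes, and Cdkn1a, which encodes the inhibitor p21. The smallest was that of Rrm2, with an unadjusted p of 0.000215 and an adjusted p of 0.273 by limma. Leaving out 1 array at a time gave 8 to 19 such genes, the most without KO replicate 4, where 17.5% of all tested genes passed. A dimmer Top2a probe, above background on 4 arrays, read -6.13, -4.08, -5.26 and -6.55 in HZ and -6.76, -4.45, -5.78 and -7.92 in KO, with replicate 2 highest and replicate 3 next in both genotypes. Of the 8 genes among these 12 with a promoter at hand, 6 held a CCAAT word, 4 a CHR word and 0 an E2F word. Among all 36 proliferation genes with a promoter at hand, the shares were 72.2%, 22.2% and 13.9%. Over the 27025 genes with promoters, they were 37.5%, 18.3% and 1.51%. The 8 genes were picked by the F test on these arrays, and a link of any word to the replicate numbers was not tested.

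**Figure D3:**
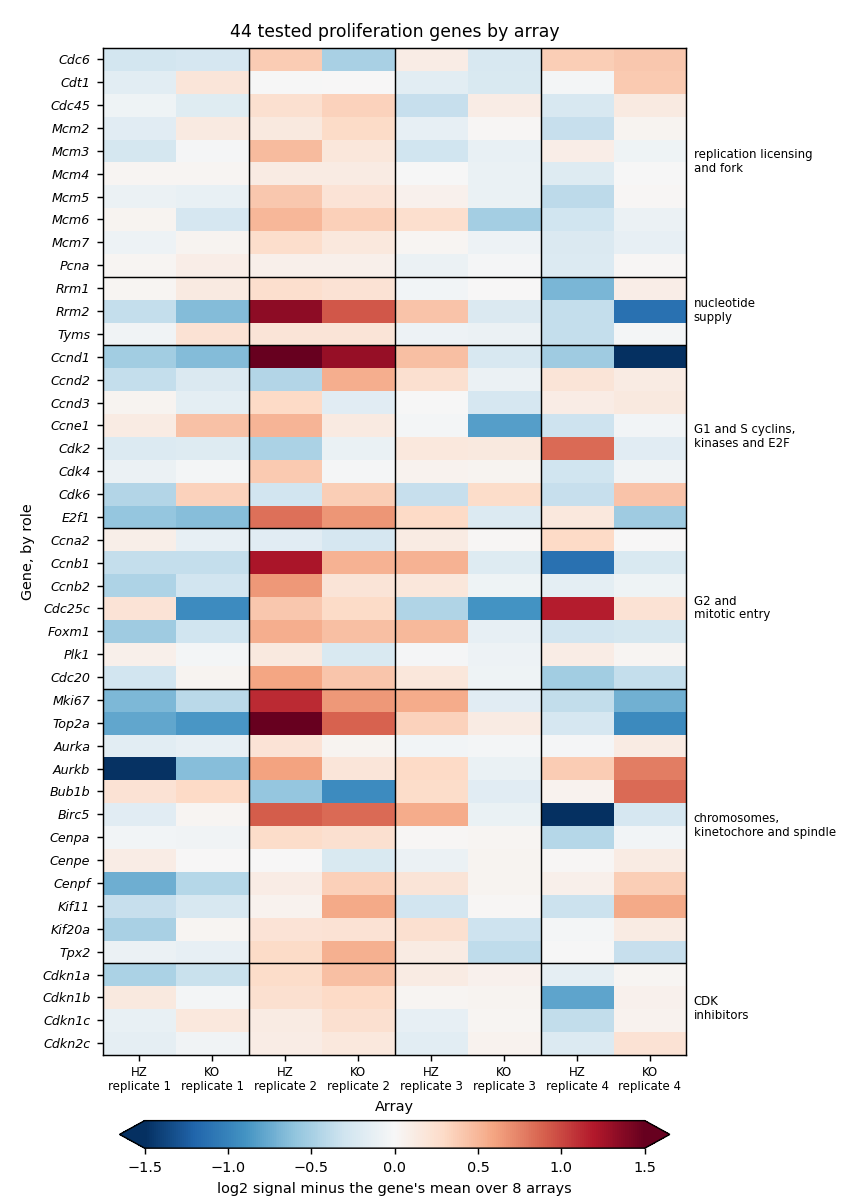
Log2 signal of each tested gene minus its mean over 8 arrays (color, capped at ± 1.5), genes in rows by role and arrays in columns by replicate number. The arrays of replicate 2 are red for most genes in both genotypes, while Bub1b is blue there and Cdk6 alternates with genotype.

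With the replicate number as a block, which takes these shared shifts out, 3 genes passed 1.5-fold at an adjusted p under 0.5, where 3.88% of all tested genes did. Cdk6 kept its call (adjusted p 0.309 by limma), and Ccnd1 (adjusted p 0.363) and Cdc25c (adjusted p 0.370) joined it, both lower in KO at all 4 numbers. At an unadjusted p of 0.05, 9 of the 44 passed in the block fit, against 12.5% of all tested genes. Besides these 3 they were Rrm2, E2f1 and Top2a, lower in KO at all 4 numbers, and Mcm2, Kif11 and Cdkn1c, higher in KO at all 4. Over the 44 genes, 6 were higher in KO at every number, against 18.7% of all tested genes, and 7 were lower at every number, against 9.84%. By number, KO was above HZ for 29, 17, 13 and 32 of the 44 at replicates 1, 2, 3 and 4, against 60.3%, 49.5%, 55.4% and 59.5% of all tested genes. The direction of the set thus turned between numbers.

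The genes also varied together across the arrays. After removal of the genotype means, the median Pearson's r over the 946 pairs of the 44 genes was 0.42, and 41.8% of pairs had an r over 0.5. Over all pairs of tested genes, the median was 0.05 and 19.9% had an r over 0.5. These values rest on 8 arrays that share a slide, and are given as a description. Without HZ replicate 2 the median fell to 0.22, and without both arrays of replicate 2 it was 0.12, beside 0.02 over all tested genes.

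Within roles, the median r was 0.56 for replication licensing and the fork, 0.64 for nucleotide supply, 0.59 for CDK inhibitors, 0.45 for chromosomes and spindle, 0.20 for G1 and S cyclins and kinases, and -0.07 for G2 and mitotic entry. Rrm2 and Ccnd1 had the highest r of any pair, 0.996, and Mcm2 and Mcm7 came to 0.986. Mki67 was most like Foxm1 (0.967) and was also close to Rrm2 (0.961), Top2a (0.958) and Ccnd1 (0.951). Several genes of the same pathways ran the other way. Against Mki67, r was -0.76 for Bub1b, a spindle checkpoint kinase, -0.74 for Cenpe, a kinetochore motor, -0.73 for Ccna2 and -0.44 for Plk1. The dimmer Ccna2 probe gave -0.74, so the opposite course of cyclin A2 appeared with both probes. These 4 genes were chosen after their values were seen.

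**Figure D4:**
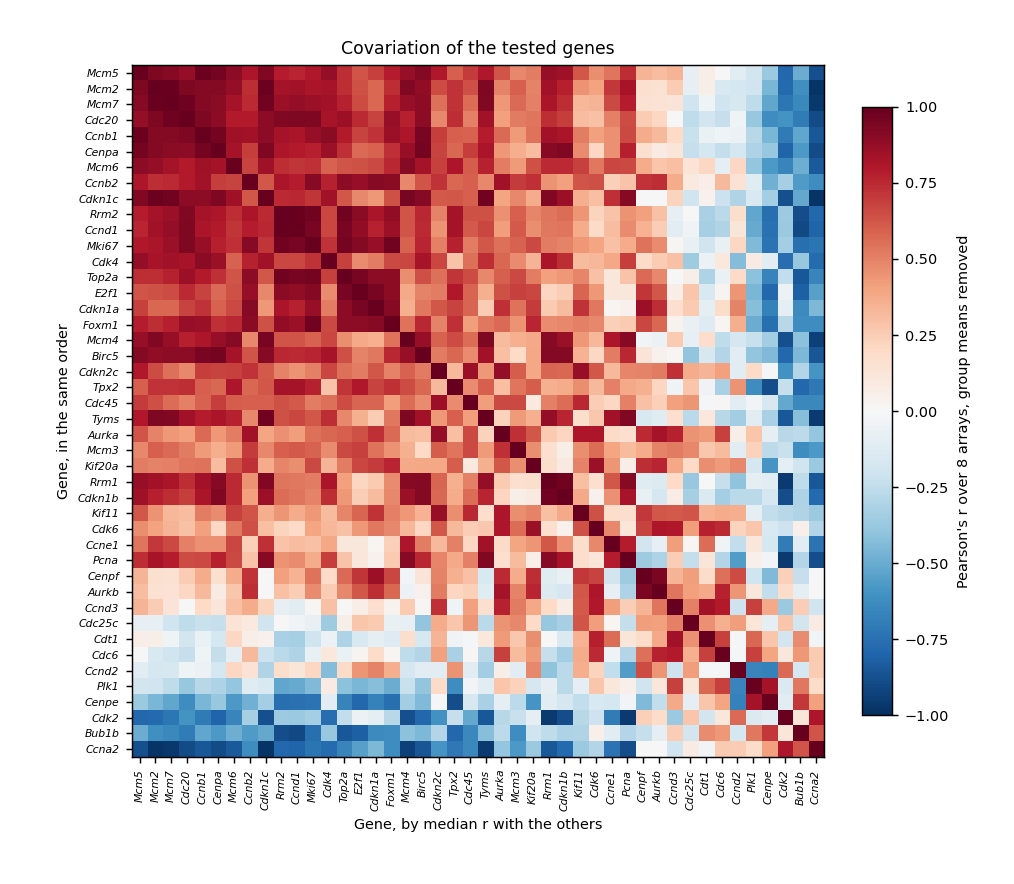
Pearson's r between the 44 tested genes over 8 arrays after removal of the genotype means (color), with genes on both axes in the order of their median r with the others. A block from Mcm5 to Birc5 is red, and Plk1, Cenpe, Cdk2, Bub1b and Ccna2 at the end are blue against it.

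The replicate 2 arrays were also highest in markers of other cells. Of 10 tested of 12 retinal progenitor markers, 8 were highest at replicate 2 in both genotypes and 7 passed the F test at an unadjusted p of 0.05. Over all tested genes, the shares were 23.8% and 13.2%. Their mean level was -0.40, 0.90, 0.28 and -0.28 in HZ and -0.26, 0.54, -0.13 and -0.65 in KO, at replicates 1 to 4. The 43 proliferation genes other than CDK inhibitors, 40 of them tested, had mean levels of -0.23, 0.38, 0.09 and -0.16 in HZ and -0.16, 0.25, -0.13 and -0.05 in KO. Both lists thus put replicate 2 on top in each genotype. Of 12 Muller glia markers, all tested, 8 were highest at replicate 2 in both genotypes and 8 passed the F test, and of 10 tested of 11 neurogenic progenitor markers 5 and 6 did (Olig2 was above background on 0 HZ arrays and 1 KO array). The 13 rod markers, by contrast, had a mean level of -0.10 in HZ replicate 2 and -0.14 in KO replicate 2, between -0.08 and 0.24 on the other HZ arrays and between -0.14 and 0.05 on the other KO arrays, and 0 of them were highest at replicate 2 in both genotypes. Mean levels of bipolar markers were also highest at replicate 2 in both genotypes (0.61 in HZ and 0.05 in KO). So were those of amacrine, horizontal and ganglion cells (5 of 14 tested, 0.34 and 0.31) and endothelium (7 of 12 tested, 0.40 and 0.44). The mean over all tested genes was 0.07 and 0.05 there, also the highest. Lists of cones, pericytes, astrocytes, microglia, pigment epithelium and red blood cells did not peak there in both genotypes. The part of any of these cells in the course of the proliferation genes was not tested.

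**Figure D5:**
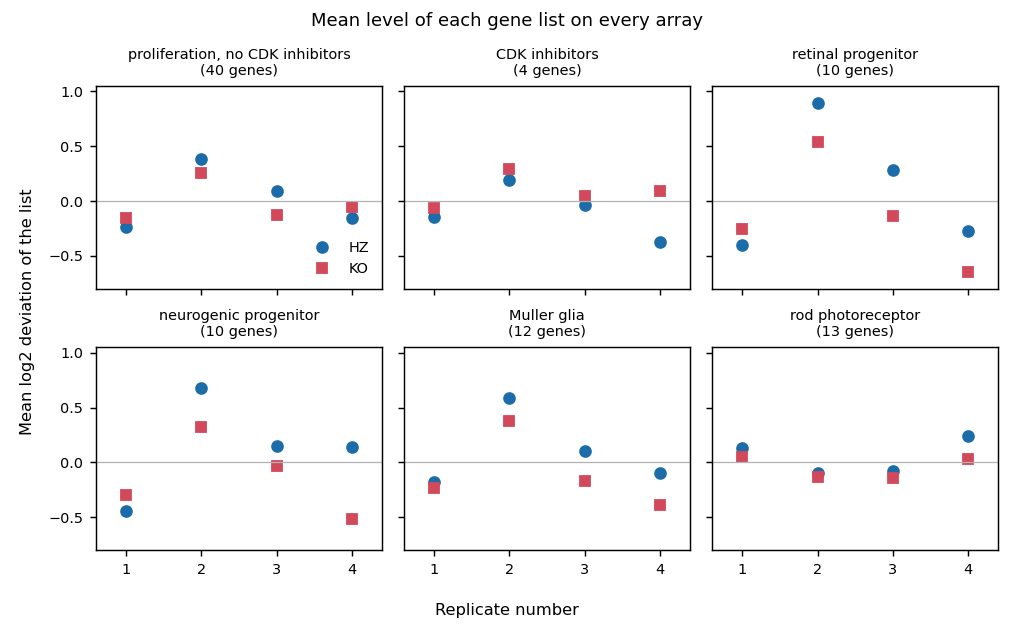
Mean log2 deviation of each gene list from the genes' means over 8 arrays (vertical axis) by replicate number (horizontal axis), circles HZ and squares KO, 1 point per array. Proliferation, progenitor and Muller glia lists are highest at replicate 2 in both genotypes, and the rod list is not. Lists not shown that are also highest there are those of bipolar cells, of amacrine, horizontal and ganglion cells, and of endothelium.

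Between the genotypes, 8 of the 10 progenitor markers were lower in KO (median -0.29), while 56.8% of all tested genes were higher. At an unadjusted p of 0.05, 0 of the 10 passed by limma, against 9.3% of all tested genes. Rax, an eye field factor, differed by -0.51 ± 0.27 (adjusted p 0.667 by limma). Of the Muller glia markers 9 were lower in KO (median -0.20). The lowest was Rlbp1, a retinaldehyde binding protein, at -0.97 ± 0.37 (adjusted p 0.580 by limma). Clu, which encodes clusterin, differed by -0.56 ± 0.15 (adjusted p 0.441 by limma). Pigment epithelium markers were lower in KO as well (median -1.67), and the part of those cells in these differences was not tested. Of the neurogenic markers 7 were lower (median -0.21). None of the progenitor, Muller glia and neurogenic lists held a gene past the looser thresholds, against 1.46% of all tested genes. At replicate 1 the direction of these lists turned. There 7, 8 and 8 of their genes, in that order, were higher in KO (medians 0.10, 0.08 and 0.11), against 60.3% of all tested genes.

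Other genes of the same pathways were compared in the same way. Of 34 other DNA replication genes 30 were tested, with a median difference of 0.12 and 24 above 0 (80.0%, against 56.8% of all tested genes). The looser thresholds were passed by 0 of the 30, against 1.46% of all tested genes. At an unadjusted p of 0.05 by limma, 4 passed, all higher in KO, against 9.3% of all tested genes. Among them were Lig1, DNA ligase 1, at 0.33 ± 0.09, Pola2, a subunit of DNA polymerase alpha, at 0.29 ± 0.12, and Rfc4, a clamp loader subunit, at 0.27 ± 0.10. The adjusted p by limma was 0.440 for Lig1 and 0.609 for Pola2, the lowest and the highest of these 3.

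Of 40 other mitosis genes 35 were tested, with a median of 0.003 and 18 above 0 (51.4%, against 56.8% of all tested genes). The largest differences were those of the condensin subunit Smc4, at -0.71 ± 0.54, and the kinetochore gene Ndc80, at -0.60 ± 0.29. At an unadjusted p of 0.05 by limma, 1 gene passed, the checkpoint gene Mad2l1 (0.23 ± 0.09), against 9.3% of all tested genes. As with the proliferation genes, replicate 2 was highest in both genotypes for 18 of the 35, and for 17 of the 30 DNA replication genes. Over all tested genes, the share was 23.8%.

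All 30 other E2F, pocket protein and CDK regulators were tested, with 15 above 0 and 1 past the looser thresholds. That gene, E2f4, encodes an E2F that acts as a repressor in resting cells. It read -6.05, -5.32, -5.51 and -6.84 in HZ, not well above background on any array, and -4.05, -4.80, -4.62 and -3.76 in KO, well above background on all 4. Its signal was at least 2.16-fold higher in KO. It entered the test only through the KO arrays, where it was high, so its call is no support for a difference. The bound sets the KO mean against, on each HZ array, the higher of the lowest signal among probes well above background and the probe's own. At an unadjusted p of 0.05 by limma, 4 of the 30 passed, against 9.3% of all tested genes. The 3 besides E2f4 were all higher in KO. They were Rb1, the retinoblastoma protein gene (0.22 ± 0.09), Tfdp2, an E2F partner (0.24 ± 0.09), and Lin54, a subunit of the complex that binds the CHR (0.22 ± 0.09).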

How the data were processed

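The data were 8 one-color arrays (SurePrint G3 Mouse 8x60K) of CD73-selected cells at postnatal day 8, grouped as HZ and KO by their labels (n = 4 each). The authors scanned them and extracted spot intensity with Agilent Feature Extraction 10.7.1.1, which subtracted the background, and the deposited intensity values were the start here. A table of log2 values deposited by the authors, shifted by the 75 percentile of the array and centred on each probe's median, served as an alternative.

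Intensity was put on the log2 scale and the 75th percentile of the 59305 non-control spots of that array was subtracted, with outlier spots dropped and repeated spots of a probe averaged. A two-sided limma test (version 3.58.1, lmFit then eBayes, R 4.3.3) was run on the 34280 of 56605 probes that passed the background mark on 4 or more arrays and had 3 or more values per group, with p-values adjusted by Benjamini-Hochberg across them. RefSeq accessions named 32989 probes through a GRCm38.p6 table, used for names and promoters only. The code was tested on simulated data. The number of arrays limits the precision.

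The members and lists were chosen with earlier results of these data known. Named are Mki67, Top2a, Pcna, Ccnd1 and Cdkn1b, the 2 genes with the largest difference in each role or other list described, genes past the looser thresholds, Lpcat1 and Nt5e (-0.11 ± 0.09), and others as range ends or where said to be chosen later. A few genes that the rule or the lists take in are left unnamed here. Genes listed for counts of 12 or fewer were also chosen after their values were seen. Same-numbered arrays shared a slide column, and their deviations from the group means correlated at 0.302, 0.337, 0.172 and 0.244, while arrays of different numbers gave -0.337 to 0.117, so the numbers were used as pairs. Alternatives were quantile normalization, normexp with offset 50 (on median signals, since mean signals were not in the files), another percentile, filter, probe rule or test, the replicate block, the authors' values and each array left out.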

Additional observations from a re-analysis of the deposited data

Results flagged for a closer look

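Of 78 groups of 4 arrays examined, 4 held an array far from the other 3, where chance flags about 1 in 20, or 3.90. The mean level of the G1 and S cyclins, kinases and E2F in KO replicate 2 was 0.34, while the other KO arrays lay between -0.22 and -0.14. The mean level of the other DNA replication genes in KO replicate 2 was 0.18, against -0.01 to 0.02 on the other KO arrays, and that of the other E2F, pocket protein and CDK regulators was 0.17, against -0.02 to 0.01. Kif11 read -3.55 in HZ replicate 2, against -3.95 to -3.89 on the other HZ arrays.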

How the results depend on the processing

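The median difference of the 44 genes and of each role moved by less than the spread between arrays under every alternative run, and lay between -0.05 and 0.09 for all members with arrays left out in turn. The sign was not steady: with 1 array left out the median ran from -0.27 to 0.06 for G2 and mitotic entry, above 0 without HZ replicate 2, from -0.03 to 0.14 for replication and from -0.05 to 0.11 for chromosomes and spindle. No scaling moved the median of all tested genes by over 0.1. The count at the looser thresholds (1.5-fold, adjusted p 0.5) was 3 with the replicate block and 0 after normexp, and 0 to 1 with 1 array left out. The methods' t-test (unpaired) called 1 gene, Cdk6, at the stricter thresholds (1.2-fold, adjusted p 0.05) after Benjamini-Hochberg, against 0.0135% of all tested genes. At the same thresholds limma with 1 array left out called 0 in every fit. The count past an unadjusted p of 0.05 was 9 with the replicate block (12.5% of all tested genes), 4 after normexp (11.7%), 2 after quantile normalization (8.74%), 2 on probes above background on all 8 arrays (9.95%), 2 with trend and robust eBayes (11.2%), and 1 to 6 with 1 array left out, 6 without HZ replicate 2 (13.5% of all tested genes). With 1 array left out, the Top2a difference ran from -0.77 to 0.021 and turned only without HZ replicate 2, the Cdkn1b difference ran from -0.047 to 0.30 and turned only without HZ replicate 4, and the direction turned for 0 of the other 13 named genes. Sizes moved more: without HZ replicate 2 the difference was -0.00023 for Mki67, -0.10 for Ccnd1 and -0.17 for Rrm2, while the largest was -0.60 for Mki67 without HZ replicate 1 and -1.14 for Ccnd1 and -0.92 for Rrm2 without KO replicate 2. Rrm1 ran from 0.036 without HZ replicate 4 to 0.35 without HZ replicate 2. Alternatives added after seeing the data gave 8 to 19 genes that differed between replicate numbers, and a median r of 0.22 to 0.48 with 1 array left out and 0.12 without both arrays of replicate 2. The causes were not tested. Values of dim probes such as those of Cdk6, Cdc6, Cdc25c and Aurkb are limited by their signal over background.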
